A study of Mus musculus with 29 samples.

Results

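The genes described here are 39 plasma proteins of the complement and coagulation systems, taken as every probe that is not a control and whose gene name in the array files is on the list. They had 50 probes on the array, and 37 of the genes and 47 of the probes had enough measurements to be tested, among 19463 genes tested in all. Complement contributed 22 genes, of which 21 were tested, and coagulation 17, of which 16 were tested. The missing pair was C8b and Cpb2.

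RNA of whole liver was measured in C57BL/6N wild-type males that were 3 months old when the diets began. For 7 weeks all groups were fed high fat from corn oil, so no group stood for the chow-fed state. The 7 cHF livers came from mice on that diet alone. The 6 cHF+R livers came from mice that also received rosiglitazone, an activator of the nuclear receptor PPARγ, at a low dose. In the 8 cHF+PC livers, about 7% of the dietary lipid had been replaced by a concentrate of EPA and DHA carried as omega-3 phospholipids rich in phosphatidylcholine, and the 8 cHF+PC+R livers came from mice given both. Each liver was 1 array, with its own RNA in Cy5 and an equal pool of the livers' RNA in Cy3, so values are log2 ratios of liver to pool, and 0 is the level of the pool.

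The liver makes most of the complement and coagulation proteins in plasma. Complement is started by antibody through C1q (classical pathway), by sugars through mannose-binding lectins (lectin pathway) or by slow hydrolysis of C3 (alternative pathway). All of these cleave C3, and the terminal components then assemble into a pore in the target membrane. Coagulation runs as a cascade of proteases from the contact factors or from tissue factor with factor VII to thrombin, which turns fibrinogen into fibrin, while protein C with protein S limits the cascade and plasmin dissolves the clot. C1q is an exception among these proteins, since macrophages rather than hepatocytes are its main source.

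All 50 probes were well above background in Cy5 on all 29 arrays, and C3 alone was saturated, on 2 arrays. Over the whole array, 55.0% to 62.5% of spots were well above background, except on cHF replicate 4 with 80.8%. All 10 hepatocyte markers were measured, as the tissue label implies. Of the adipocyte list, Lep, Plin1 and Adipoq were well above background on no more than 2 arrays.

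A difference was called where limma's p-value, adjusted by Benjamini-Hochberg over all genes, was below 0.05, and rose and fell are used only of such genes. Over the 6 comparisons there were 17 calls on 12 of the members, 6 of complement and 6 of coagulation. In cHF+PC against cHF 1 member fell, C4bp, where 3.94% of all genes passed and 2.14% fell. The livers of cHF+R had 3 members lower than cHF livers, C8g, Proc and F13b, where 3.11% of all genes passed and 1.1% fell. In cHF+PC+R against cHF 3 rose (C2, C3 and Pros1) and 4 fell (C4bp, C8g, C9 and Masp2), where 9.5% of all genes passed, 4.73% as higher and 4.77% as lower. In cHF+PC+R against cHF+R 6 rose (C3, F5, F7, F12, F13b and Proc) and none fell, where 7.16% of all genes passed in either direction and 3.31% as higher. No member passed in cHF+PC+R against cHF+PC, where 0.134% of all genes did, and 8 members had an unadjusted p below 0.05, as did 8.53% of all genes. In the interaction of both additions 4 members had an unadjusted p below 0.05, as did 6.64% of all genes, and none passed, where 0% of all genes passed. The calls depended on how arrays were normalized: of the 17, 0 were kept with median centring in place of loess, 2 with loess followed by scaling between arrays (both of C4bp) and 3 with quantile-normalized Cy5 alone (both of Proc, and C4bp in cHF+PC+R). The first 3 comparisons share the cHF livers, and the comparisons of cHF+PC+R share its livers. Those of cHF+R against cHF and of cHF+PC+R against cHF+R share the cHF+R livers, with opposite sign. A low level in these livers alone would give both a fall and a rise, as called for Proc and F13b.

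The coagulation transcripts had a median change of 0.21 in cHF+PC+R against cHF+R, with 14 of 16 above 0. Over all 19463 genes the median was -0.01, with 9265 above 0. Under median centring in place of loess the coagulation median was -0.03, with 6 of 16 above 0 and a median of -0.06 over all genes. These transcripts come from the same livers, so their directions are not independent. Their mean level per liver ran from -0.08 to 0.13 in cHF and from -0.19 to 0.26 in cHF+R. It ran from 0.07 to 0.30 in cHF+PC and from -0.05 to 0.38 in cHF+PC+R. In cHF+PC against cHF their median change was 0.10, with 15 of 16 above 0. Over all genes it was 0.00067, with 9803 of 19463 above 0. The coagulation median there was 0.28 with loess followed by scaling, and 0.04 with 10 of 16 above 0 in quantile-normalized Cy5 alone. In cHF+R against cHF it was -0.09, with 12 of 16 below 0, as were 8489 of all 19463 genes. Median centring turned the coagulation median there to 0.24 while moving the median of all genes to 0.15. In the deposited table it was -0.05, beside -0.04 over all genes. With spots marked as outliers kept it was -0.03 over 17 transcripts, beside 0.01 over all genes. The complement transcripts had medians of -0.08, -0.05, -0.06 and 0.03 in the comparisons of cHF+PC, of cHF+R and of cHF+PC+R with cHF and in that of cHF+PC+R with cHF+R. Loess removes a trend with intensity from each array, and median centring leaves it in.

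**Figure D1:**
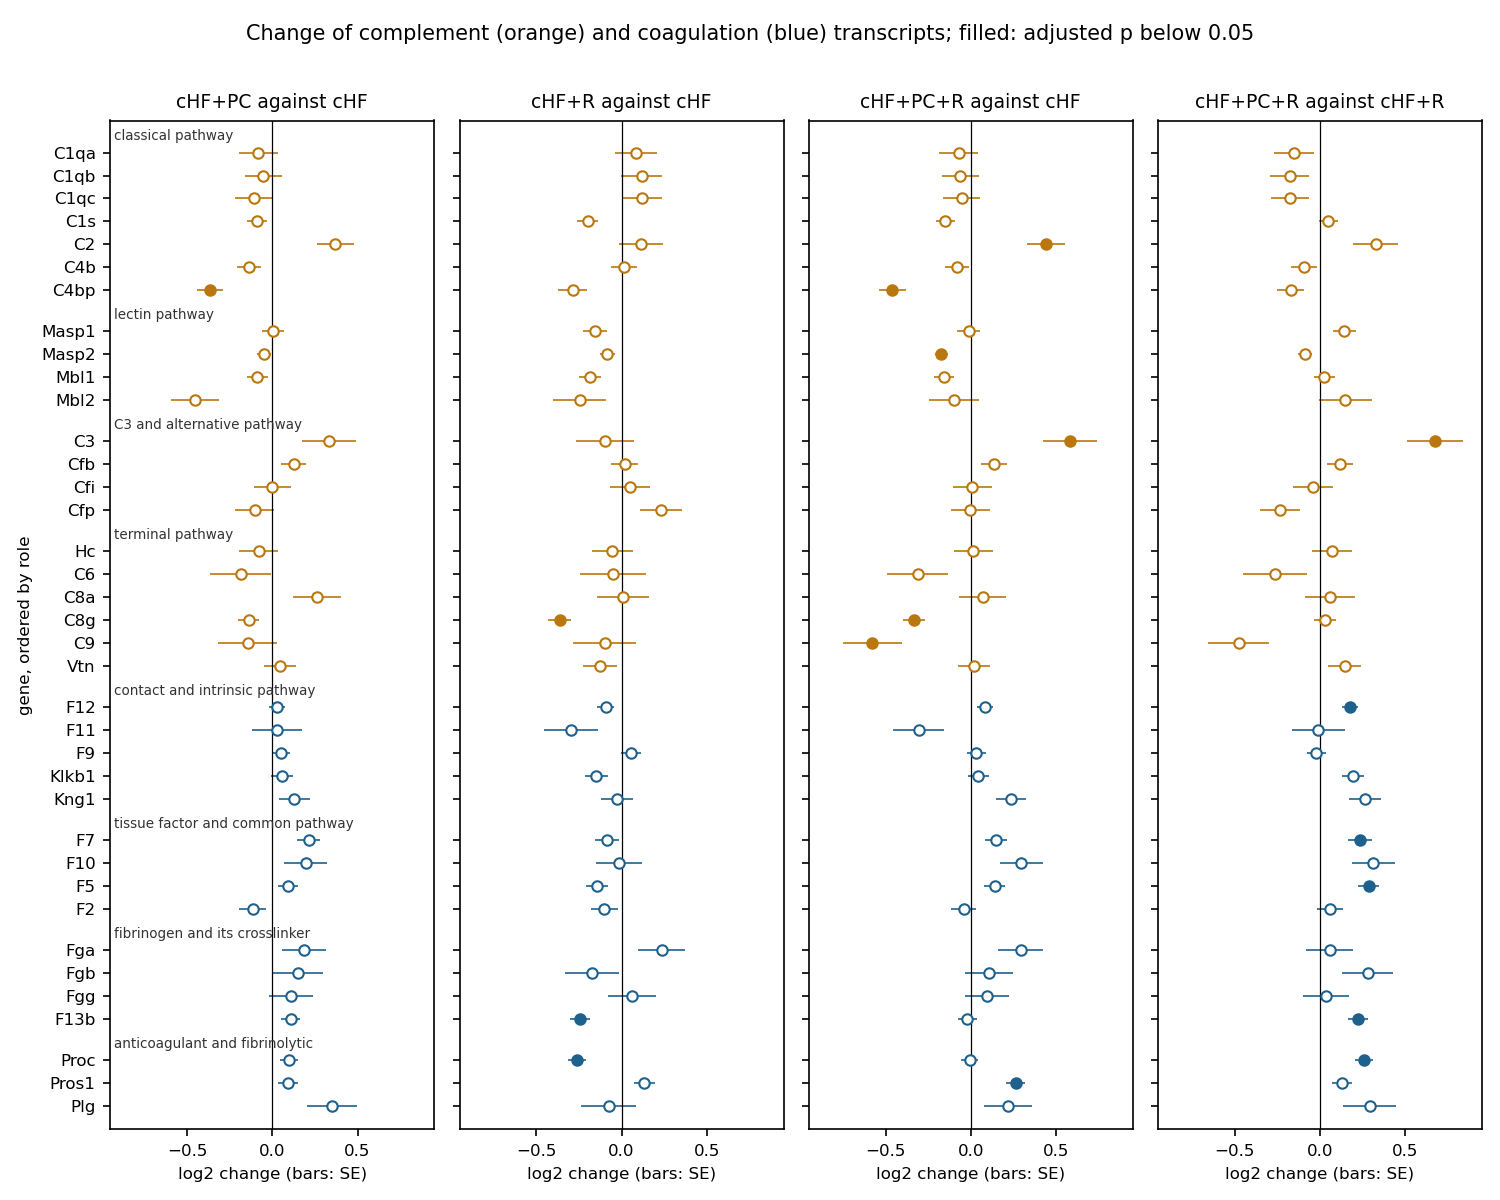
Log2 change of each of the 37 measured members in 4 comparisons, with standard errors. Rows are genes grouped by role, orange is complement, blue is coagulation, and filled points have an adjusted p below 0.05. In the last panel the 5 filled coagulation points lie right of 0, a side that Proc and F12 leave under median centring.

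Classical pathway. C1qa, C1qb and C1qc encode the 3 chains of C1q, which binds antibody on a target. C1qa ran from -0.38 to 0.21 in cHF livers (median -0.17), from -0.29 to 0.40 in cHF+R (-0.10), from -0.54 to 0.16 in cHF+PC (-0.23) and from -0.57 to 0.22 in cHF+PC+R (-0.19). C1qb ran from -0.36 to 0.16 in cHF (-0.23), from -0.30 to 0.50 in cHF+R (-0.21), from -0.51 to 0.12 in cHF+PC (-0.31) and from -0.49 to -0.00 in cHF+PC+R (-0.22). C1qc ran from -0.27 to 0.25 in cHF (-0.13), from -0.15 to 0.59 in cHF+R (-0.06), from -0.40 to 0.22 in cHF+PC (-0.25) and from -0.36 to 0.13 in cHF+PC+R (-0.10). For all 3 chains the groups overlapped widely, and the highest liver was the same one, cHF+R replicate 6. The changes of the chains against cHF lay between -0.11 and 0.12, and none passed. Among 10 macrophage markers measured, none passed in any comparison, and their mean level ran from -0.41 to 0.18 in cHF livers, from -0.21 to 0.74 in cHF+R, from -0.49 to 0.21 in cHF+PC and from -0.37 to 0.29 in cHF+PC+R. In such bulk RNA, fewer cells of a type and less RNA per cell cannot be told apart.

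C4bp encodes the alpha chain of C4b-binding protein, which holds the classical pathway in check by helping to break down C4b. Its probe (mm9, chr1:132532724-132532783) read 0.23 to 0.39 in 4 cHF livers (median 0.33), -0.10 to 0.21 in 4 cHF+R livers (0.01), -0.25 to 0.09 in 7 cHF+PC livers (-0.01) and -0.32 to 0.04 in 5 cHF+PC+R livers (-0.18). Every cHF value lay above every value of the other groups, which no other member showed. Of all genes, 1.43% had groups that did not overlap in cHF+PC against cHF, 2.1% in cHF+R and 2.46% in cHF+PC+R. C4bp had fewer livers per group than a gene with values on all arrays. Fewer livers separate more easily, so these shares are not like for like. C4bp fell in cHF+PC by 0.37 (SE 0.0738, adjusted p = 0.00738) and in cHF+PC+R by 0.46 (SE 0.079, adjusted p = 0.00102). In cHF+R the change was -0.29 (SE 0.0833, adjusted p = 0.0681). On the other arrays the scanner software had marked the spot as not uniform in Cy5, and it entered the fit at the minimum of 20 arrays. With the marked spots kept, a choice made after seeing the data, all 29 livers gave changes of -0.41 in cHF+PC, -0.31 in cHF+R and -0.51 in cHF+PC+R, all past the threshold, and cHF livers ran from 0.22 to 0.53 against 0.23 for the highest cHF+R liver.

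C2 encodes the protease that joins C4b to form the enzyme that cleaves C3. It read -0.55 to -0.16 in cHF livers (median -0.43), -0.43 to -0.06 in 4 cHF+R livers (-0.28), -0.44 to 0.38 in cHF+PC (0.06) and -0.14 to 0.40 in 7 cHF+PC+R livers (0.09). All cHF+PC+R values lay above all cHF values, as for 2.46% of all genes in either direction. C2 rose in cHF+PC+R against cHF by 0.44 (SE 0.112, adjusted p = 0.0125), or 1.36-fold, and was higher on 6 of 6 slides that held both. In cHF+PC the change was 0.37 (SE 0.109, adjusted p = 0.0536). C1s, a protease of the C1 complex, changed by -0.20 in cHF+R (adjusted p = 0.0764) and -0.15 in cHF+PC+R (adjusted p = 0.0844). With marked spots kept it passed in cHF+R, at -0.22 (adjusted p = 0.0301 over all probes). C4b, the precursor of C4b itself, changed by -0.14 at most. Probes of near-identical copies, such as C4a beside C4b or C1s2 beside C1s, can bind each other's transcripts.

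Lectin pathway. Mbl1 and Mbl2 encode mannose-binding lectins, and Masp1 and Masp2 the proteases they carry. Masp2 read -0.06 to 0.10 in cHF livers (median 0.05), -0.12 to 0.07 in cHF+R (-0.06), -0.12 to 0.10 in cHF+PC (-0.01) and -0.26 to -0.04 in cHF+PC+R (-0.12). It had the smallest spread within groups of all members, 0.0698, and although the ranges overlapped it was lower in cHF+PC+R on 7 of 7 slides that held both groups. It fell there by 0.17 (SE 0.0393, adjusted p = 0.00549) against cHF. The other probes of Masp2 changed by -0.12 and 0.07 in that comparison and did not pass, and neither did the mean of the 3 probes, so the call rests on the brightest probe (mm9, chr4:147978456-147978515). Mbl2 read -0.00 to 0.68 in cHF (0.20) and -0.47 to 0.28 in 7 cHF+PC livers (-0.24), a change of -0.45 (SE 0.142, adjusted p = 0.0733). It had the largest interaction of all members, 0.60 (SE 0.211, adjusted p = 0.648). With marked spots kept these values were -0.34 in cHF+PC and 0.36 for the interaction. Mbl1 changed by -0.18 in cHF+R and -0.16 in cHF+PC+R, and Masp1 by -0.15 in cHF+R, none past the threshold.

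C3 and the alternative pathway. C3 is the protein on which all complement pathways converge. It read -0.14 to 0.24 in cHF livers (median 0.17), -0.38 to 0.74 in cHF+R (-0.17), 0.07 to 0.88 in cHF+PC (0.33) and -0.16 to 1.1 in cHF+PC+R (0.60). In the group given both, 7 of 8 livers lay above every cHF liver, and replicate 6 lay below the pool. C3 rose in cHF+PC+R by 0.58 against cHF (SE 0.158, adjusted p = 0.0179) and by 0.68 against cHF+R (SE 0.164, adjusted p = 0.011), which are 1.5-fold and 1.6-fold. Against cHF+R the change was 0.20 in quantile-normalized Cy5 alone, and fitted with only the compared groups the adjusted p was 0.0627. In cHF+PC against cHF the change was 0.33 (SE 0.158, adjusted p = 0.249). A second probe of the gene gave 0.62 and 0.81 in the comparisons of cHF+PC+R with cHF and with cHF+R, both past the threshold in a fit over all probes, where 9.03% and 6.72% of probes passed. This probe had values on 28 arrays, and with marked spots kept the changes were 0.62 and 0.64, both past the threshold.

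Cfb, the factor B that forms the alternative C3 convertase, changed by 0.14 in cHF+PC+R against cHF, and Cfp, the properdin that stabilises this enzyme and comes from white cells, by 0.23 in cHF+R. Cfi, which cuts C3b and C4b with their cofactors, stayed between -0.04 and 0.05 in every comparison of groups. None of them passed.

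Terminal pathway. C8a, C8b and C8g encode the 3 chains of C8, where the gamma chain is a lipocalin and not related to the pore-forming chains. C8g read 0.06 to 0.43 in cHF livers (median 0.31), -0.20 to 0.09 in cHF+R (-0.07), -0.11 to 0.34 in cHF+PC (0.17) and -0.14 to 0.11 in cHF+PC+R (-0.05). All but the lowest cHF liver lay above every liver of both groups given rosiglitazone, and the cHF+PC livers lay between. C8g fell by 0.36 in cHF+R (SE 0.0673, adjusted p = 0.00148) and by 0.33 in cHF+PC+R (SE 0.0626, adjusted p = 0.000978), the smallest adjusted p of any member in any comparison. It was lower on 5 of 5 and on 7 of 7 shared slides. Under median centring the change in cHF+R was 0.0049. In cHF+PC+R against cHF+PC its change was -0.20 (adjusted p = 0.251).

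C8g had probes at 2 places, whose first 30 bases are shown because they differed in the size of the change.
C8g, brighter probe, mm9 chr2:25354176-25354235, minus strand: gaagcaccccttcatacagctctgttgtcc
C8g, second probe, mm9 chr2:25355615-25355674, minus strand: tattgggtctacctcccccatcagcactat
The second probe changed by -0.20 in cHF+R (adjusted p = 0.074) and -0.16 in cHF+PC+R (adjusted p = 0.078) in the fit over all probes, the same direction without a call, where 2.96% and 9.03% of probes passed. C8a read -0.44 to 0.07 in cHF livers (median -0.18), -0.70 to 0.52 in cHF+R (-0.17), -0.41 to 0.53 in cHF+PC (0.14) and -0.31 to 0.21 in cHF+PC+R (-0.14). C8b had values on 19 arrays, since its spot was marked as not uniform on the others, and missed the minimum of 20. With marked spots kept, it read -0.34 to 0.61 in cHF (-0.09), -0.82 to 0.59 in cHF+R (0.18), -0.53 to 0.46 in cHF+PC (0.07) and -0.60 to 0.27 in cHF+PC+R (-0.11). Neither of these chains passed in any comparison, and their groups overlapped throughout.

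C9 forms the wall of the membrane pore. It read -0.30 to 0.70 in cHF livers (median 0.02), -0.53 to 0.59 in cHF+R (0.04), -0.34 to 0.33 in cHF+PC (0.00) and -1.0 to 0.10 in cHF+PC+R (-0.42). Several cHF+PC+R livers lay below every liver of the other groups, while the rest overlapped with them. C9 fell in cHF+PC+R against cHF by 0.58 (SE 0.171, adjusted p = 0.0302), lower on 6 of 7 shared slides. The adjusted p passed 0.05, up to 0.072, when cHF replicate 1, 2 or 3 or cHF+PC+R replicate 3 or 4 was left out, with changes between -0.65 and -0.49 over all such fits. Against cHF+R the change was -0.48 (adjusted p = 0.1) and against cHF+PC -0.43 (adjusted p = 0.425). C6 had the widest spread within groups of all members, 0.37, with changes of -0.18, -0.05 and -0.31 against cHF. Hc, which encodes C5, and Vtn, the vitronectin that blocks pore insertion, stayed between -0.13 and 0.05 against cHF, and no comparison of these 3 passed.

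**Figure D2:**
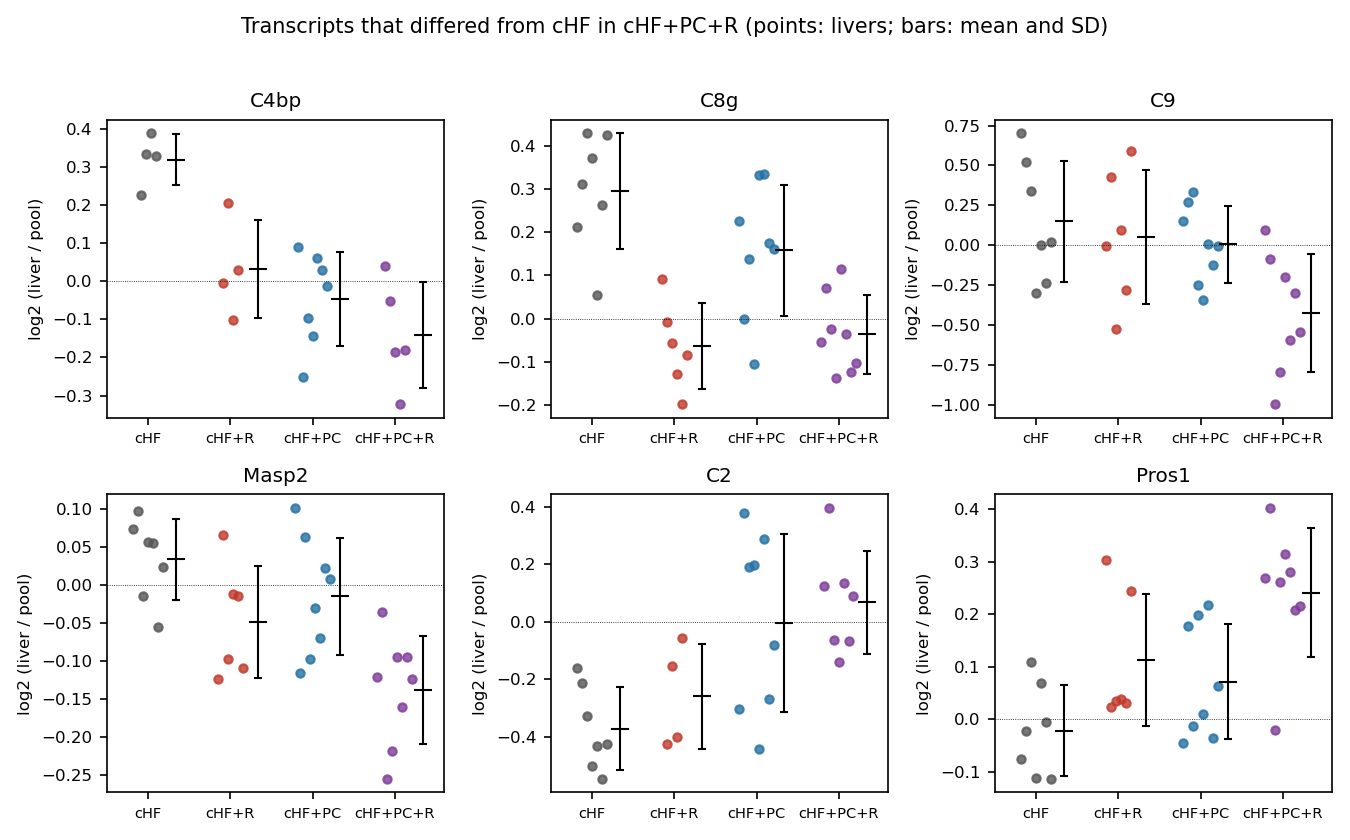
Log2 ratio of each liver to the pool for the 6 members called in cHF+PC+R against cHF other than C3, by diet group, with the group mean and SD. C4bp and C2 are the pair whose cHF and cHF+PC+R livers do not overlap, and C9 is the most scattered.

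Coagulation members that rose together in cHF+PC+R against cHF+R came from several limbs of the cascade. For that reason the upstream sequences of F7, F12, F5 and F13b are shown, with those of C3, C4bp and C9. The sequence of Proc, which also rose there, is not shown. The sequences shown are the 150 bases before the transcription start, in GRCm38.p6, from RefSeq, where capitals mark matches of the motifs given after them.
F7, chr8:13025884-13026033, plus strand: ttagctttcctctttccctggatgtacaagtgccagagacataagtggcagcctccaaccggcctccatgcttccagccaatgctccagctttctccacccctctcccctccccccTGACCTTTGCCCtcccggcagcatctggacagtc
F12, chr13:55426805-55426954, minus strand: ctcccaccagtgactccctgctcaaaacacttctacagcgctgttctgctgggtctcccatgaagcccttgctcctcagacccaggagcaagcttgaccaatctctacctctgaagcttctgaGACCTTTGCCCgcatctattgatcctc
F5, chr1:164151685-164151834, plus strand: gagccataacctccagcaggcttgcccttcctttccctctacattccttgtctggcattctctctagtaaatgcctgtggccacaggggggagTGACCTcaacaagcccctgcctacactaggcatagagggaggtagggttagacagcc
F13b, chr1:139501557-139501706, plus strand: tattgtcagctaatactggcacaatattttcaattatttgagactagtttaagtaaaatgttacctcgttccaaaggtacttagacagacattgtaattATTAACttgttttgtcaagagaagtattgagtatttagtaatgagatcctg
C3, chr17:57228137-57228286, minus strand: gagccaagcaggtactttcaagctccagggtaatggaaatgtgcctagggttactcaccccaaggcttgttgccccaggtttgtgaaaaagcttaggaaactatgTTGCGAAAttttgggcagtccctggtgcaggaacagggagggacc
C4bp, chr1:130661619-130661768, minus strand: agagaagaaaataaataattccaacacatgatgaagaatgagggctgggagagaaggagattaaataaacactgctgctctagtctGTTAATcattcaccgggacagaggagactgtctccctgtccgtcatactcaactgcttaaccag
C9, chr15:6445196-6445345, plus strand: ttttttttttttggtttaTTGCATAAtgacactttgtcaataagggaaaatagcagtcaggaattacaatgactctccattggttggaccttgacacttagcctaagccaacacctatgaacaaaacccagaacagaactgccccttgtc

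The motifs were searched on both strands in the 250 bases before the start, in 32 promoters of the 30 members with an entry and in all 32851 promoters of the table. The nuclear receptor motif AGGTCA was in 10 of the 32 and in 14.0% of all, with F5 and F7 among the 10. The HNF1 motif GTTAAT was in 9 of the 32 and in 6.43% of all, with C4bp, F13b, Fga and Fgb among the 9. The C/EBP motif TTGCNNAA was in 8 of the 32 and in 9.56% of all, with C3, C9, Fga and Fgb among the 8. The FOXA motif TGTTTAC was in the promoters of F11 and Klkb1 and in 3.17% of all, and the E-box CACGTG in 0 of the 32 and in 6.02% of all. The longest run shared by the F7 and F12 sequences shown, GACCTTTGCCC with 11 bases, was added to the search after they had been read. Its presence in the promoters of these members was fixed by that choice, and it was in 10 of all promoters (0.0304%). No shared run was sought in other pairs of members. It began 33 bases before the start of F7, where it overlaps the nuclear receptor motif, and 27 before that of F12. These matches describe the letters in the window and were not tested as sites.

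Contact and intrinsic factors. F12 encodes factor XII, the protease that starts the contact route. It read -0.19 to 0.05 in cHF livers (median -0.09), -0.27 to -0.10 in cHF+R (-0.19), -0.32 to 0.05 in cHF+PC (-0.03) and -0.08 to 0.07 in cHF+PC+R (-0.02). Every cHF+PC+R liver lay above every cHF+R liver, as for 1.61% of all genes in either direction, and no other member separated these groups. F12 rose by 0.18 (SE 0.0484, adjusted p = 0.0253), and was higher on 6 of 6 shared slides. The call was lost, with an adjusted p of up to 0.0682, when cHF+R replicate 1 or 5 or cHF+PC+R replicate 4 was left out, while the change stayed between 0.16 and 0.19, and median centring turned it to -0.06. The call was also lost in processed signals of the scanner software (adjusted p = 0.0602), the deposited table (0.0561) and with array weights (0.0555). Klkb1, the prekallikrein that factor XII activates, changed by 0.19 in the same comparison (SE 0.0659, adjusted p = 0.0705), and Kng1, the kininogen that carries it and releases bradykinin, by 0.26 (SE 0.0928, adjusted p = 0.0793). F11, the next protease of this route, changed against cHF by -0.30 in cHF+R and by -0.31 in cHF+PC+R, neither past the threshold, with livers from -0.85 to 0.55. F9, missing or defective in haemophilia B, stayed between -0.02 and 0.05 in every comparison of groups.

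Tissue factor route and common pathway. F7 encodes factor VII, which with tissue factor starts clotting after injury. It read -0.39 to -0.09 in cHF livers (median -0.19), -0.50 to -0.09 in cHF+R (-0.33), -0.12 to 0.09 in cHF+PC (-0.03) and -0.40 to 0.20 in cHF+PC+R (-0.09). The cHF+PC livers were mostly above the cHF livers, and the cHF+PC+R livers mostly above the cHF+R livers, with overlap in both. F7 rose in cHF+PC+R against cHF+R by 0.23 (SE 0.0694, adjusted p = 0.0383), and its second probe, which overlaps the brighter one by 30 bases, by 0.26 (adjusted p = 0.033). In cHF+PC against cHF the change was 0.21 (SE 0.0665, adjusted p = 0.0649). Leaving out any of cHF+R replicates 1 to 5 or cHF+PC+R replicates 2, 4, 5 and 7 ended the call, with changes between 0.19 and 0.28 and an adjusted p of up to 0.0979. With no filter on dim probes the adjusted p was 0.0534, and with only the compared groups in the fit 0.112.

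F5 encodes factor V, the cofactor with which factor X makes thrombin. It read -0.21 to 0.07 in cHF livers (median 0.02), -0.34 to 0.00 in cHF+R (-0.16), -0.12 to 0.23 in cHF+PC (0.07) and -0.15 to 0.26 in cHF+PC+R (0.13). All but a pair of cHF+PC+R livers lay above the highest cHF+R liver. F5 rose in cHF+PC+R against cHF+R by 0.28 (SE 0.063, adjusted p = 0.00548), or 1.22-fold, and was higher on 6 of 6 shared slides. Its second probe, elsewhere in the gene, gave 0.27 (adjusted p = 0.017).

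F10, the factor X protease, had the largest change in cHF+PC+R against cHF+R among the members never called in any comparison, 0.31 (SE 0.125, adjusted p = 0.127) at its brighter probe. At the second probe the change was 0.10. The bases of the brighter probe shown here occur unchanged in probes of Cxcl11, Elk1 and Med16, so its signal may not be that of F10 alone.
F10, brighter probe, bases 19 to 48, mm9 chr8:13056119-13056178, plus strand: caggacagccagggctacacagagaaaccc
F10, second probe, bases 1 to 30, mm9 chr8:13055774-13055833, plus strand: tggcatctacacaaaggtcacgaccttcct
The Elk1 and Med16 probes that share the run changed by 0.28 and 0.30 in the same comparison, and neither passed. F2, prothrombin itself, stayed between -0.12 and 0.07 in every comparison of groups.

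**Figure D3:**
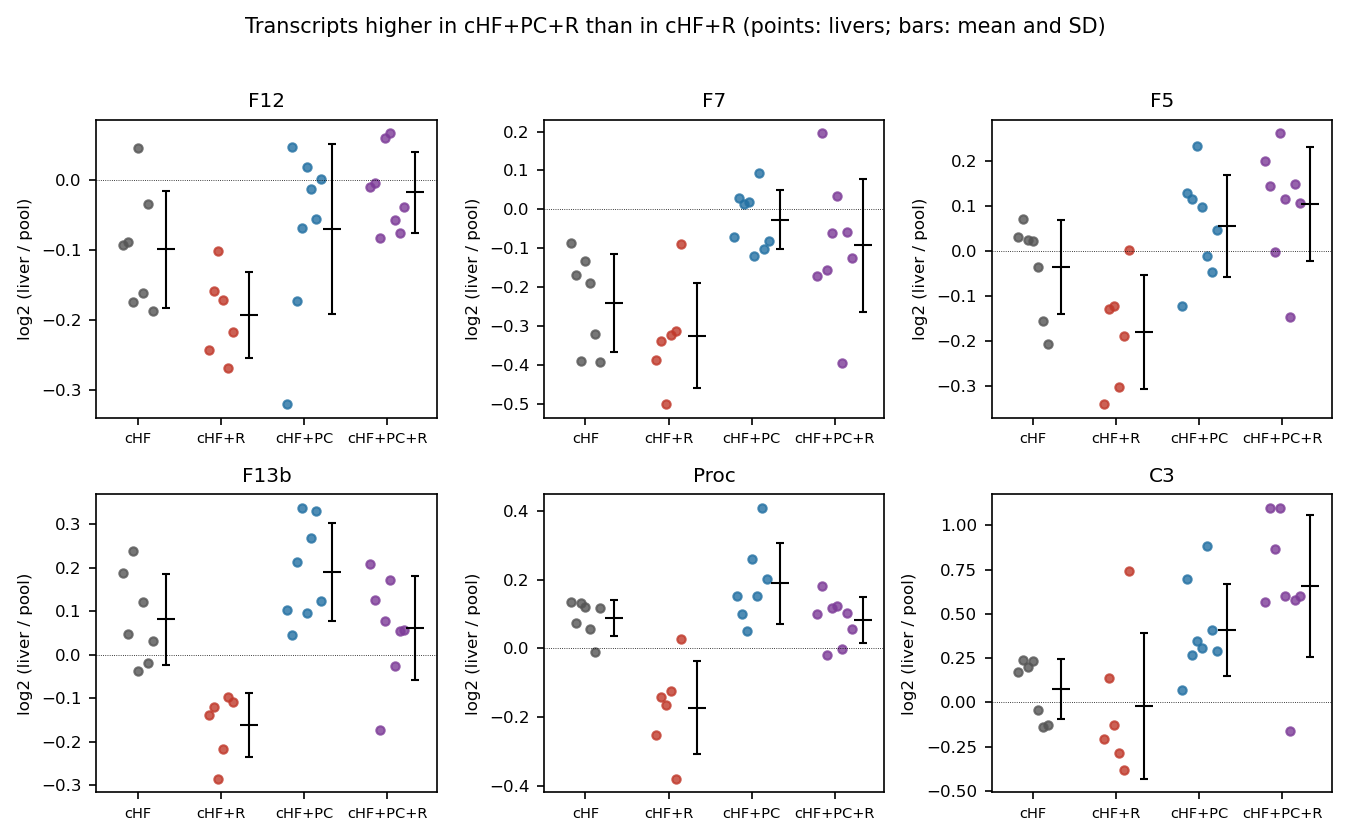
Log2 ratio of each liver to the pool for the 6 members higher in cHF+PC+R than in cHF+R, by diet group, with the group mean and SD. F12 is the gene in which these groups do not overlap, and in F13b and Proc the cHF+R livers are also low beside the cHF livers. Under median centring the differences of F12 and Proc between the groups given rosiglitazone turn to -0.06 and -0.00.

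Fibrinogen and its crosslinker. Fga, Fgb and Fgg encode the 3 chains of fibrinogen, which lie side by side on mm9 chromosome 3. Fga read -0.47 to -0.09 in cHF livers (median -0.22), -0.37 to 0.50 in cHF+R (-0.15), -0.23 to 0.44 in cHF+PC (-0.18) and -0.28 to 0.68 in 7 cHF+PC+R livers (-0.02). Fgb read -0.01 to 0.36 in 6 cHF livers (0.24), -0.20 to 0.30 in 5 cHF+R livers (0.05), -0.12 to 1.11 in 7 cHF+PC livers (0.30) and 0.01 to 0.86 in cHF+PC+R (0.30). Fgg read -0.07 to 0.25 in cHF (0.12), -0.18 to 0.75 in cHF+R (0.15), -0.12 to 0.83 in cHF+PC (0.12) and -0.11 to 0.65 in cHF+PC+R (0.15). In the 3 groups with an addition the ranges were wider than in cHF for each chain, and the highest values came from a few livers, cHF+PC replicate 2 for Fgb and Fgg and cHF+PC+R replicate 2 for Fga. Changes against cHF lay between -0.17 and 0.29 and none passed. The lowest was that of Fgb in cHF+R. With marked spots kept, the highest cHF+R liver read 0.97 for Fgb, and that change was -0.01.

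F13b encodes the carrier subunit of factor XIII, which crosslinks fibrin. It read -0.04 to 0.24 in cHF livers (median 0.05), -0.29 to -0.10 in cHF+R (-0.13), 0.05 to 0.34 in cHF+PC (0.17) and -0.17 to 0.21 in cHF+PC+R (0.07). All cHF+R livers lay below all cHF livers and all cHF+PC livers, where 2.1% of all genes had cHF and cHF+R livers that did not overlap. F13b fell in cHF+R against cHF by 0.24 (SE 0.0594, adjusted p = 0.0175) and rose in cHF+PC+R against cHF+R by 0.22 (SE 0.0576, adjusted p = 0.0166). It was lower on 5 of 5 and higher on 6 of 6 shared slides. Without cHF+R replicate 3 the fall had an adjusted p of 0.0536, and with the slide as a fixed block one of 0.0518, and median centring turned the fall to 0.034.

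**Figure D4:**
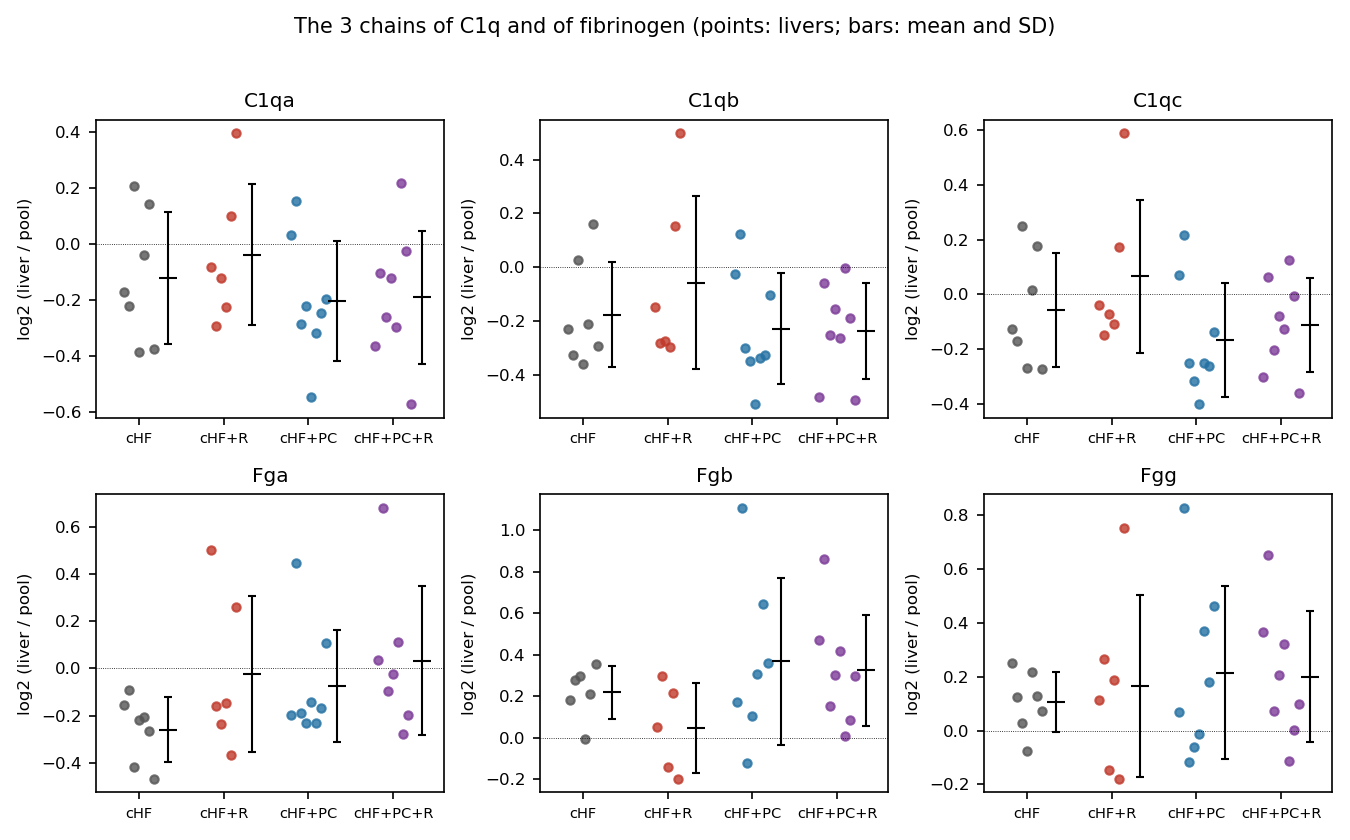
Log2 ratio of each liver to the pool for the 3 chains of C1q (top) and of fibrinogen (bottom), by diet group, with the group mean and SD. No chain passed the threshold in any comparison, and the groups overlap in every panel.

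Anticoagulant and fibrinolytic proteins. Proc encodes protein C, which inactivates factors V and VIII. It read -0.01 to 0.13 in cHF livers (median 0.12), -0.38 to 0.03 in cHF+R (-0.15), 0.05 to 0.41 in 7 cHF+PC livers (0.15) and -0.02 to 0.18 in cHF+PC+R (0.10). The cHF+R livers were low, all but the highest of them below every other liver. Proc fell in cHF+R against cHF by 0.26 (SE 0.0546, adjusted p = 0.00488) and rose in cHF+PC+R against cHF+R by 0.26 (SE 0.053, adjusted p = 0.00326), 1.20-fold and 1.19-fold. It was lower on 5 of 5 and higher on 6 of 6 shared slides, and its change in cHF+PC+R against cHF was -0.01. Median centring turned the fall to 0.091 and the rise to -0.00079. The interaction was 0.16 (SE 0.0746, adjusted p = 0.742). Pros1, the protein S that serves as its cofactor, read -0.11 to 0.11 in cHF (-0.02), 0.02 to 0.30 in cHF+R (0.04), -0.05 to 0.22 in cHF+PC (0.04) and -0.02 to 0.40 in cHF+PC+R (0.27). Most cHF+PC+R livers lay above every cHF liver. Pros1 rose in cHF+PC+R against cHF by 0.26 (SE 0.0578, adjusted p = 0.00398), higher on 6 of 7 shared slides. Plg, the precursor of plasmin, changed by 0.35 in cHF+PC and 0.22 in cHF+PC+R against cHF, with standard errors of 0.146 and 0.141, and did not pass. Cpb2, which slows clot lysis by trimming fibrin, had values on 18 arrays, too few for the fit, and with marked spots kept it changed by 0.24 in cHF+PC (adjusted p = 0.11).

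The 25 measured members never called as reported had changes between -0.45 and 0.35 in cHF+PC, between -0.30 and 0.24 in cHF+R and between -0.31 and 0.30 in cHF+PC+R against cHF. In cHF+PC+R against cHF+R they lay between -0.26 and 0.31. The median spread within groups was 0.187 for the members and 0.111 over all genes tested. C6, C9, C3 and F11 were the most variable, and Masp2, F12, Proc and C1s the least. An absent call at these sizes does not show that a transcript did not differ.

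Of the 9 members with several measured probes, C3, F5 and F7 had calls at both probes, and C8g and Masp2 at the brightest alone. Kng1 changed by 0.24 and 0.04 at its probes in cHF+PC+R against cHF, and Masp1 by 0.14 and -0.07 in cHF+PC+R against cHF+R, none past the threshold. No other probe of a called member passed in the opposite direction.

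**Figure D5:**
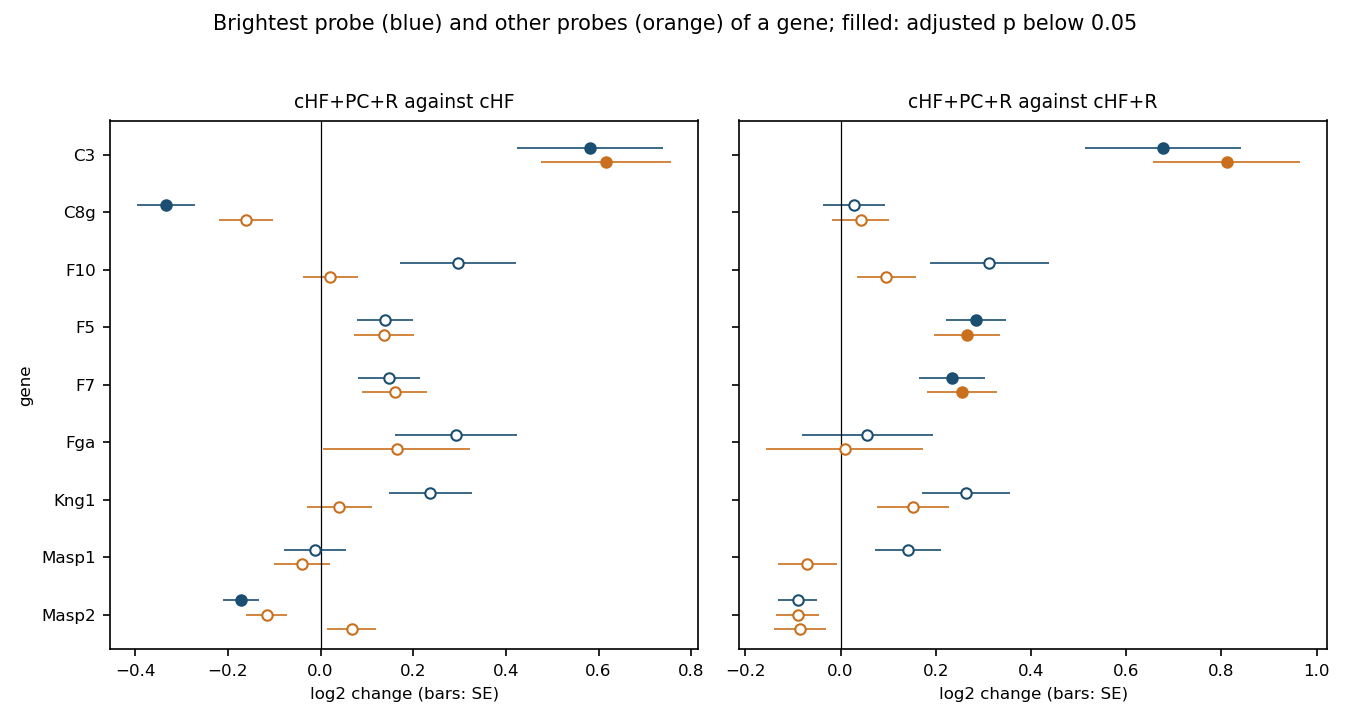
Log2 change at each measured probe of the 9 members with several, in cHF+PC+R against cHF (left) and against cHF+R (right), with standard errors and filled points for an adjusted p below 0.05. C3, F5 and F7 have filled points at both probes on the right, while the probes of F10 and Kng1 differ in the size of the change.

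Other genes of these pathways were counted from lists. Unlike the members, listed genes were not followed one by one under the other normalizations, so their calls are those of the loess fit alone. Of 10 other complement components measured, Colec10, a collectin of the lectin pathway, fell in cHF+PC by 0.30 and in cHF+PC+R by 0.38 against cHF, and by 0.33 in cHF+PC+R against cHF+R. C1s2, the close copy of C1s, fell by 0.22 in cHF+R and by 0.19 in cHF+PC+R. Cfd, the factor D of the alternative pathway and an adipocyte product, rose by 4.51 in cHF+R against cHF (SE 0.835, adjusted p = 0.00148) and fell by 3.01 in cHF+PC+R against cHF+R (adjusted p = 0.0266). Its group means were -3.53 in cHF, 0.98 in cHF+R, -4.64 in cHF+PC and -2.02 in cHF+PC+R. Retn, another adipocyte product, rose by 0.65 in cHF+R. The 3 adipocyte markers measured were Cfd, Retn and Adig, and the 2 that passed there were Cfd and Retn themselves. The list is thus no separate measurement, and Cfd had its largest change. The mean level of these 3 markers ran from -2.12 to -1.10 in cHF livers, from -0.96 to 2.27 in cHF+R, from -2.56 to -1.43 in cHF+PC and from -2.30 to 1.82 in cHF+PC+R. Their part in the changes of the members in cHF+R was not tested.

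Of 17 complement regulators and receptors measured, Cpn1, which trims the anaphylatoxins, rose by 0.22 in cHF+R. Clu, the clusterin that binds the forming pore, rose by 0.40 in cHF+PC+R against cHF+R. None passed in the other comparisons with cHF.

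Of 11 other coagulation factors and cofactors, Mcfd2 and Lman1 encode the receptor pair that carries factors V and VIII out of the endoplasmic reticulum. Mcfd2 fell by 0.29 in cHF+PC and by 0.19 in cHF+PC+R against cHF, and by 0.25 in cHF+PC+R against cHF+R. Lman1 fell by 0.19 in cHF+PC+R against cHF, where F5 itself changed by 0.14 without a call. Gas6, a relative of protein S, fell by 0.45 in cHF+PC and by 0.43 each in cHF+R and in cHF+PC+R, comparisons that share the cHF livers.

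Of 14 inhibitors and fibrinolytic proteins, Serpinf2, the main inhibitor of plasmin, fell by 0.36 in cHF+R and rose by 0.30 in cHF+PC+R against cHF+R, a pattern also seen in Proc and F13b. Both comparisons use the same cHF+R livers. Under median centring the changes of Proc and F13b in cHF+R against cHF turned to 0.091 and 0.034, and Serpinf2 was not followed there. Hrg, which binds plasminogen and fibrinogen, rose by 0.42 in cHF+PC, by 0.39 in cHF+PC+R against cHF and by 0.54 against cHF+R. Hgfac, a protease related to factor XII, fell by 0.35, 0.48 and 0.27 in these comparisons. Tfpi2, a Kunitz inhibitor, fell by 0.29 in cHF+PC, rose by 0.36 in cHF+R and fell by 0.55 in cHF+PC+R against cHF+R.

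Hepatocyte markers and acute phase genes were counted beside the members. Of 10 hepatocyte markers, 9 were below 0 in cHF+R against cHF with a median of -0.21, and Serpina1a was among those that fell. In cHF+PC+R against cHF+R their median was 0.13, and Hpd, Cps1 and Tdo2 rose. In cHF+R beside cHF, with no call among them, 7 of 8 stellate (median 0.21), 9 of 10 macrophage (0.15), 7 of 8 endothelial (0.09) and 6 of 7 platelet markers (0.12) had changes above 0. So had 4 of 6 lymphocyte (0.04) and 3 of 4 neutrophil markers (0.09). Below 0 were all 3 erythroid markers (-0.20), 1 of them called, and 2 of 3 bile duct markers (-0.0077). Over all 19463 genes, 10974 had changes above 0. The mean level of the hepatocyte markers ran from 0.02 to 0.35 in cHF livers, from -0.17 to 0.28 in cHF+R, from 0.09 to 0.27 in cHF+PC and from -0.09 to 0.43 in cHF+PC+R. Of 19 acute phase and inflammatory genes, Apcs, the serum amyloid P component, rose by 1.15 in cHF+R and fell by 1.19 in cHF+PC+R against cHF+R, where Itih3 rose by 0.45. Of 21 liver transcription factors, Rxra rose by 0.22 in cHF+PC, Nr1h4 fell by 0.35 in cHF+PC+R against cHF, and Nr2f2 rose by 0.34 in cHF+PC+R against cHF+R. The part of these genes in the members' changes was not tested.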

How the data were processed

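The deposited scanner files give, per the file headers, linear Cy5 and Cy3 intensity and local background per spot from Agilent Feature Extraction 10.5.1.1, not normalized between arrays, with probe positions in mm9. Per the labels, 1000 ng of RNA per liver was amplified, all Cy3 products were pooled as the reference, no dyes were swapped, and the authors left out 1 high-fat and 1 rosiglitazone array. A second table deposited by the authors holds log2 values in 25806 rows, and its columns follow each array's Cy5 intensity with no ratio taken. How these were normalized was not given in the sources used here. The table served as an alternative.

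Intensities were background-corrected by normexp (offset 50) and normalized by loess within arrays in R 4.3.3 (limma 3.58.1), without control spots or spots marked as outliers. Each probe's spots were averaged. Probes entered where 6 or more arrays had Cy5 well above background and 20 or more had values, as for 23930 of 39429, and the probe of highest mean intensity stood for its gene. A model of 4 group means was fitted to all 29 arrays (lmFit and eBayes), with two-sided p-values adjusted by Benjamini-Hochberg over all 19463 genes, and again with 1 row per probe. The fit was tested on simulated data. Each of the 8 slides held no more than 1 array per group, so changes were also taken within slides. Their number limits the precision, and livers are of separate mice.

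The members, the lists and the comparisons were chosen with earlier results of these data known. The text names each member past the threshold, its partners in C1q, C8 and fibrinogen, and of each other list up to 4 genes past the threshold per comparison, apart from a few that are not reported here. Lists of endothelial, bile duct, platelet, lymphocyte and neutrophil markers had no gene past the threshold in any comparison. Of the stellate list Lrat fell by 0.49 in cHF+PC against cHF, and of the erythroid list Alas2 fell by 0.42 in cHF+R against cHF. Falls were not confined to these comparisons. In the stellate list 1 gene also fell in cHF+PC+R against cHF and 1 against cHF+R. In the erythroid list 1 gene also fell in cHF+PC+R against cHF and 1 against cHF+PC. Of the 10 hepatocyte markers, 1 rose in cHF+PC against cHF and 1, Ttr, fell by 0.51, with 5 above 0 and 5 below. In cHF+PC+R against cHF, 1 of these markers rose and 3 fell. Symbols and promoters came from RefSeq (GRCm38.p6). Whether a probe lies in a coding exon or a UTR was not analysed here. Alternatives were another background correction, normalization, filter, probe rule, block or set of samples, and leaving out each liver.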

Additional observations from a re-analysis of the deposited data

Results flagged for a closer look

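In 7 of 148 groups of livers examined, over the measured members, the highest or lowest liver stood far from the others by Dixon's criterion, which chance alone gives in about 1 in 20 groups. C3 was lowest in cHF+PC+R replicate 6, at -0.16 where the next liver was at 0.57. Pros1 was lowest in cHF+PC+R replicate 3, at -0.021 where the next was at 0.21. Cfi was highest in cHF+PC+R replicate 2, at 0.44 where the next was at -0.02, and in cHF+R replicate 6, at 0.65 where the next was at 0.01. Fga was highest in cHF+PC+R replicate 2, at 0.68 where the next was at 0.11. F10 was lowest in cHF+PC replicate 7, at -0.043 where the next was at 0.41, and Mbl1 was lowest in cHF+PC replicate 6, at -0.38 where the next was at -0.13. The calls on C3 and Pros1 kept their side of the threshold without these livers.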

How the results depend on the processing

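Normalization had the largest effect. With median centring in place of loess, 0 members passed in every comparison, and changes turned sign for C8g, Proc and F13b in cHF+R against cHF (0.0049, 0.091 and 0.034) and for Proc and F12 in cHF+PC+R against cHF+R (-0.00079 and -0.063). The standard error of the change of Proc in cHF+R was 0.261 there, beside 0.0546. With loess followed by scaling between arrays, 0 members passed in cHF+R against cHF, 1 in cHF+PC+R against cHF (C4bp) and 0 in cHF+PC+R against cHF+R, and with quantile-normalized Cy5 alone 1 (Proc), 1 (C4bp) and 1 (Proc), and 0 in cHF+PC against cHF. Under these 3 settings the genes called in cHF+R against cHF fell from 606 to 82, 73 and 293, and the share of them higher was 93.9%, 86.3% and 63.8%, beside 64.5% and, in the deposited table, 39.4%. In cHF+PC against cHF, where 1 member had passed, 3 passed without background subtraction, 5 with array weights, and 2 with the stricter filter, the slide as a random block, the replicate block or only the compared groups. In cHF+R against cHF 5 passed in the deposited table and with marked spots kept. In cHF+PC+R against cHF+PC 2 passed with array weights. The cause of these differences was not tested. The other alternatives kept each count within 1.5 times of that reported. Same-numbered livers did not deviate together (median r across genes 0.0176, from -0.353 to 0.402 over 40 pairs). Of these pairs 27 also shared a slide, and pairs on the same slide had a median r of 0.0234. Such a correlation cannot show whether replicate numbers formed a block in the design, and the labels name none. With the replicate block 2, 2, 8, 8, 0 and 0 members passed in the 6 comparisons in the order of the report, and F13b in cHF+R had an adjusted p of 0.0504.

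Leaving out each liver gave 1 to 3 members in cHF+PC against cHF (3 without cHF replicate 1, cHF+R replicate 6 or cHF+PC+R replicate 2), 2 to 5 in cHF+R against cHF (5 without cHF+R replicate 2 or cHF+PC replicate 2, and 2 without cHF+R replicate 3), 6 to 9 in cHF+PC+R against cHF, 4 to 10 in cHF+PC+R against cHF+R (10 without cHF+R replicate 6), and 0 in cHF+PC+R against cHF+PC and in the interaction. No called change turned sign.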
